A study of Mus musculus with 19 samples.

Results

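Tumor necrosis factor (TNF) and the transcription factor NF-kB switch on genes that in turn adjust the same pathway, and 10 of these genes were followed in mouse tongue epithelia. They were taken by name, without regard to a threshold, but with earlier results of these data known. Their counts beside the shares of all genes are therefore descriptions. The 10 genes are Tnf, Tnfaip3, Nfkbia, Nfkbiz, Nfkb1, Nfkb2, Relb, Birc3, Icam1 and Bcl3. All 10 are among the 24689 gene symbols of the deposited table, and all 10 passed the filter on low values. Bulk RNAseq was available for 19 epithelia, each labelled as its own mouse, collected 15 days after transgene induction.

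Mice of the E group (n = 5) carry Krt14-CreERT, LSL-rtTA and tetON_E6-E7, those of the Y group (n = 3) Krt14-CreERT, LSL-rtTA and tetON_YAP1S127A, and those of the EY group (n = 6) all of these alleles. Of the 5 normal (N) mice, N mice 1 to 3 carry Krt14-CreERT with LSL-rtTA and neither effector. N mouse 4 carries LSL-rtTA without Cre, and N mouse 5 carries Krt14-CreERT and both effectors without rtTA. E6 and E7 are papillomavirus oncoproteins that disable p53 and RB, and YAP1S127A is a YAP protein that escapes inhibition by the Hippo kinases. Tamoxifen injected into the tongue activates the Cre recombinase in cells that use the Krt14 promoter, which are basal keratinocytes, and doxycycline chow then induces the effectors. The study describes its mice as littermates in groups balanced for age and sex, with an H2B-GFP reporter in addition, and the labels give no age. The epithelium was freed from the muscle with collagenase and dispase at a warm temperature and its RNA was taken whole. Fewer cells of a type and less RNA per cell therefore cannot be told apart.

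In resting cells NF-kB dimers are held in the cytoplasm by inhibitors of the IkB family. TNF and related ligands lead to phosphorylation and loss of these inhibitors in the canonical branch, while the noncanonical branch processes the NFKB2 precursor, which then pairs with RELB. Active NF-kB induces its own inhibitors, so that signaling is followed by restraint, and in stratified epithelia the pathway is known for its part in inflammation and barrier defence.

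Levels are in transcripts per 1000000 (TPM), which are scaled for gene length and sum to the same total in every mouse. Between 8269674 and 11007304 reads per mouse were recovered from the steps of the values, so depth was similar across groups. The TPM for each read differed widely between genes. In N mouse 1, 574 reads of Nfkb1 gave 3.06 TPM, while 132 reads of Nfkb2 gave 9.33 TPM. The lengths used are not given, so levels are read between mice and not between genes. Ranks of abundance and summed levels hold for these TPM only. Genes were kept if 3 or more mice reached 0.1 TPM, which left 22745. They were fitted by limma after conversion to log2(TPM + 0.1), a scale that understates changes of genes near 0. A differentially expressed gene (DEG) changed by more than 1 on the log2 scale in either direction, with p adjusted by Benjamini-Hochberg under 0.01. EY, Y and E epithelia share the same N mice as controls, so their differences from N are given side by side. Over all genes tested the log2 fold change had a median of 0.33 in EY epithelia, 0.13 in Y epithelia and 0.07 in E epithelia. Median-of-ratios scaling, which divides a mouse by its typical ratio to the mean of each gene, brought these medians to 0.01, -0.03 and -0.02, and values after scaling are relative to that shift.

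The label of tongue epithelium was checked against 8 keratinocyte markers, all of which were detected. In EY epithelia 2 of the 8 rose and 3 fell, where 12.6% of all genes were called higher and 5.71% lower. Their summed level was 55369 ± 5440 TPM (SD, n = 6) in EY, 83714 ± 23791 (n = 3) in Y, 101445 ± 19689 (n = 5) in E and 112693 ± 24378 (n = 5) in N epithelia. Krt13, a keratin of differentiated mucosal cells and the most abundant of them, fell by 1.75 on the log2 scale in EY epithelia (adjusted p = 6.16e-05), as did Krt4, its partner keratin, by 1.61. Krt14, the basal keratin whose promoter drives the Cre, rose by a log2 fold change of 1.43 (adjusted p = 0.000402). Basal markers did not move as a group, since Krt15, another basal keratin, fell by 1.27 (adjusted p = 0.00281), while Krt5, at 0.98, and Trp63, at 0.02, were not called. Krt15, Krt5 and Trp63 were named after their values were seen.

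Promoters of 7 of the 10 genes were found in the set of RefSeq promoters used here, while Nfkbiz, Nfkb1 and Relb had no entry in that set. Those of the 7 genes were 10 stretches of 250 bases before to 50 after a transcription start (GRCm38.p6, an earlier build than the GRCm39 used for alignment). They were searched on both strands for the NF-kB consensus motif, the AP-1 motif TGANTCA and the TEAD motif GGAATG, the last being the site of the factors that YAP binds. The NF-kB consensus was found in 6 of the 10 stretches, in Tnfaip3, Nfkbia, Nfkb2 and Bcl3, against 4.51% of 32851 promoters in all. By gene it was found in 4 of the 7, against 5.14% of 27025 genes. Stretches of Nfkb2 overlap, so a site can be counted more than once. AP-1 motifs were found in 2 of the 10 stretches and TEAD motifs in 1, against 7.81% and 14.7% of all promoters. In 1 Nfkb2 promoter the TEAD and NF-kB matches share a start at position -236. A match is a description of the letters and not of binding. The 140 bases before the start are shown for 3 genes with matches on the near side of the start, since each of them, encoding a ubiquitin editor, an inhibitor and a subunit of NF-kB, was a DEG in both EY and Y epithelia. Capitals mark the NF-kB consensus on either strand, and each is read 5′ to 3′ along its gene, at chr10:19015411-19015550 (minus strand), chr12:55492648-55492787 (minus strand) and chr19:46304597-46304736 (plus strand).
Tnfaip3: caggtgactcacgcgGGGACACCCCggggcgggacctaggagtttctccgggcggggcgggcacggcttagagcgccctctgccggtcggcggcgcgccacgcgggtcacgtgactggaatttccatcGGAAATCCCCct
Nfkbia: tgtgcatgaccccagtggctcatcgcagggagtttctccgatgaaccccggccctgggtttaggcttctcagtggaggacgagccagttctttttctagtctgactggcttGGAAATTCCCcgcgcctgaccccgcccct
Nfkb2: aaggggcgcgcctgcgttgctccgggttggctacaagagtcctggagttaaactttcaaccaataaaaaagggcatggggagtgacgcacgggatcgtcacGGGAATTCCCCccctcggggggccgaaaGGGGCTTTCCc
Counting from -1 at the last base before the start, the Tnfaip3 matches begin at -125 and -12 and the Nfkbia match at -29. Nfkb2 has overlapping matches at -39 and -38 and a further one at -11. An AP-1 motif begins at -136 in Tnfaip3.

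The comparison of EY with N asks how the feedback genes stood when both effectors were induced. In EY epithelia 8 of the 10 genes were DEGs and all 8 were higher, where 12.6% of all genes tested were called higher. In Y epithelia 5 were DEGs, all higher (3.47% of all genes called higher), and in E epithelia 1 was, Icam1 (1.16% called higher). Every EY mouse was above every N mouse in 9 of the 10 genes, which held for 20.9% of all genes. The same was true of 8 genes in Y epithelia (15.5% of all genes) and of 2 in E epithelia (3.93%). Overlap of mice was read on TPM before scaling, here and below, so it includes the shift in the medians of all genes. The median log2 fold change of the 10 genes was 1.25 in EY epithelia, 1.17 in Y epithelia and 0.31 in E epithelia, and 0.88, 0.97 and 0.20 after scaling. Scaling lowered the number of DEGs in EY epithelia to 4, namely Tnfaip3, Nfkb2, Relb and Icam1, where 6.77% of all genes were called higher, and no gene of the 8 changed direction. Of all genes called in EY epithelia 68.8% were higher, and 43.9% after scaling. In Y epithelia the shares were 75.8% and 57.2%.

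**Figure D1:**
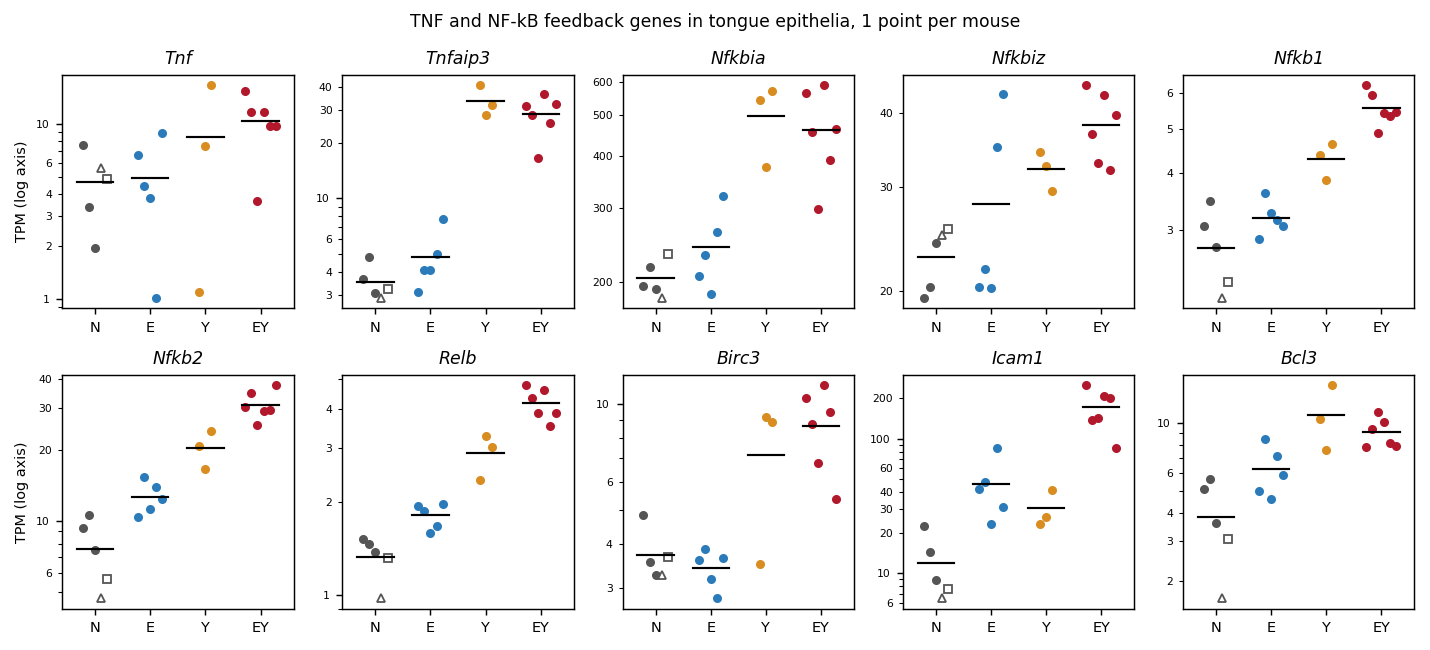
TPM (log axis) of the 10 genes in each mouse of the N, E, Y and EY groups, with bars at the group means and open symbols for N mouse 4 (triangle) and N mouse 5 (square). Tnfaip3 lies between 28.1 and 40.9 TPM in Y and between 16.6 and 36.8 in EY mice, above the highest E mouse at 7.70.

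Tnf encodes the ligand that opens the pathway. It was at 7.59, 3.35, 1.95, 5.62 and 4.86 TPM in N mice 1 to 5, and at 6.68, 4.44, 3.77, 1.02 and 8.83 in E mice 1 to 5. The Y mice had 1.10, 7.5 and 16.7 TPM, and the EY mice ranged from 3.65 to 15.5 with a median of 10.7. These levels overlapped in all 4 groups and Y mouse 1 was far below the other Y mice, at 4 reads against 31 and 67. Tnf was no DEG in EY epithelia (log2 fold change 1.15, SE 0.62, limma adjusted p = 0.155), with a 95% interval from -0.16 to 2.46. Its log2 fold change was 0.30 in Y (SE 0.75) and -0.07 in E epithelia (SE 0.65), and the value in Y was 1.38 without Y mouse 1 and -0.52 without Y mouse 3, with neither called. Depth was low, at 4 to 67 reads per mouse, and the interval in EY epithelia includes the log2 fold changes of 7 other genes, those of Tnfaip3 and Icam1 being above it. The study itself reports more Tnf transcript and more TNF protein in EY epithelia.

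Tnfaip3 encodes A20, a ubiquitin-editing enzyme that shuts off signaling downstream of the TNF receptor. It was at 3.67, 4.81, 3.08, 2.90 and 3.23 TPM in N mice 1 to 5 and at 3.12, 4.09, 4.11, 4.99 and 7.70 in E mice 1 to 5. The Y mice had 40.9, 28.1 and 31.8 TPM, and the EY mice ranged from 16.6 to 36.8 with a median of 29.9. Every Y and EY mouse was thus above every N and E mouse. Tnfaip3 rose by a log2 fold change of 3.22 in Y (SE 0.27, adjusted p = 1.19e-06) and 2.95 in EY epithelia (SE 0.22, adjusted p = 1.68e-08). In E epithelia the value was 0.39 (SE 0.23, adjusted p = 0.495). After scaling the log2 fold changes were 3.02 in Y and 2.58 in EY epithelia.

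Nfkbia encodes IkB-alpha, the inhibitor that binds NF-kB in the cytoplasm and is resynthesised after each round of activation. Its TPM was the highest of the 10 genes. It was at 195, 216, 192, 183 and 234 TPM in N mice 1 to 5 and at 206, 232, 186, 263 and 321 in E mice 1 to 5. In Y mice it was at 545, 377 and 571 TPM, and the EY mice ranged from 299 to 591 with a median of 460.5. Only EY mouse 3, the lowest of its group, lay within the range of the E mice, and all Y and EY mice were above all N mice. Nfkbia rose by a log2 fold change of 1.27 in Y (SE 0.21, adjusted p = 0.000556) and 1.15 in EY epithelia (SE 0.17, adjusted p = 4.12e-05). In E epithelia it was 0.22 (SE 0.18, adjusted p = 0.658). The EY value was 0.77 after scaling and 0.98 by limma voom on the recovered reads, both under the limit on the fold change.

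Nfkbiz and Bcl3 encode atypical IkB proteins, which act in the nucleus together with NF-kB subunits. Nfkbiz ranged from 32.0 to 44.6 TPM in EY, 29.5 to 34.5 in Y, 20.3 to 43.1 in E and 19.5 to 25.5 in N mice. All Y and EY mice were above all N mice, and E mice 4 and 5 lay within the range of the EY mice. Nfkbiz was no DEG, with a log2 fold change of 0.74 in EY (SE 0.18, adjusted p = 0.00259) that was under the limit on the fold change, and 0.36 after scaling. Its values were 0.50 in Y and 0.23 in E epithelia.

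Bcl3 was at 5.14, 5.65, 3.62, 1.69 and 3.06 TPM in N mice 1 to 5 and at 5.02, 8.51, 4.61, 7.15 and 5.92 in E mice 1 to 5. Levels in Y mice were 10.4, 7.64 and 14.7 TPM, and the EY mice ranged from 7.84 to 11.2 with a median of 8.76. All Y and EY mice were above all N mice, E and N mice overlapped, and N mouse 4, which has no Cre, was the lowest of all. Bcl3 rose by a log2 fold change of 1.33 in EY (SE 0.26, adjusted p = 0.000476) and 1.55 in Y epithelia (SE 0.31, adjusted p = 0.00272). The call in Y was lost without Y mouse 1 (1.56, adjusted p = 0.0111) or Y mouse 3 (1.31, adjusted p = 0.0273), with only N mice 1 to 3 (1.14, adjusted p = 0.0120) and with only N and Y mice fitted (adjusted p = 0.0520). In EY the value was 0.92 with only N mice 1 to 3 and 0.96 after scaling, both under the limit. In E epithelia Bcl3 was no DEG at 0.77 (adjusted p = 0.158).

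Nfkb1, Nfkb2 and Relb encode subunits of NF-kB, the first mainly of the canonical dimers and the others of the noncanonical ones. Nfkb2 was at 9.33, 10.6, 7.54, 4.70 and 5.64 TPM in N mice 1 to 5 and at 10.3, 15.3, 11.2, 13.9 and 12.4 in E mice 1 to 5. The Y mice had 20.7, 16.5 and 24.1 TPM, and the EY mice ranged from 25.4 to 37.4 with a median of 29.8. The group means stood in the order N, E, Y, EY. N and E mice overlapped, and before scaling E, Y and EY mice did not overlap with each other. Nfkb2 was a DEG in EY (log2 fold change 2.08, SE 0.18, adjusted p = 1.08e-07) and Y epithelia (1.47, SE 0.22, adjusted p = 0.000255). The call in Y was lost when only N and Y mice were fitted (adjusted p = 0.0186, the highest of the settings run). In E epithelia the value was 0.78 (adjusted p = 0.0306), between 0.458 and 0.916 over all settings, and Nfkb2 was no DEG. N mice 4 and 5 were the lowest of the N group.

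Relb was low throughout, at 1.52, 1.46, 1.38, 0.974 and 1.31 TPM in N mice 1 to 5 and at 1.93, 1.87, 1.59, 1.67 and 1.97 in E mice 1 to 5. Among Y mice it was at 2.36, 3.28 and 3.01 TPM, and the EY mice ranged from 3.52 to 4.77 with a median of 4.13. Before scaling no neighbours in the order N, E, Y, EY overlapped, with 46 to 181 reads behind each value. Relb was a DEG in EY (log2 fold change 1.59, SE 0.14, adjusted p = 1.05e-07) and Y epithelia (1.06, SE 0.17, adjusted p = 0.00039), and not in E epithelia (0.43, adjusted p = 0.147). The value in Y lay at the limit and was under it without N mouse 4 (0.96), without Y mouse 2 (0.97), with only N mice 1 to 3 (0.93) and after scaling (0.88). With only N and Y mice fitted its adjusted p was 0.0243.

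Nfkb1 ranged from 4.91 to 6.25 TPM in EY, 3.86 to 4.63 in Y, 2.86 to 3.61 in E and 2.12 to 3.46 in N mice. Before scaling its E, Y and EY mice did not overlap with each other. The log2 fold change in EY epithelia was 1.01 (SE 0.13, adjusted p = 4.46e-06), which is at the limit. It was under the limit without N mouse 4 (0.93), N mouse 5 (0.96), EY mouse 1 (0.98) or EY mouse 2 (0.99), with only N mice 1 to 3 (0.83) and after scaling (0.64), with an adjusted p of at most 0.000238 over all settings. In Y epithelia it was 0.65 (adjusted p = 0.00696) and in E epithelia 0.23.

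Icam1 and Birc3 are targets of NF-kB. Icam1 encodes an adhesion molecule to which leukocyte integrins bind. It was at 22.5, 14.3, 8.87, 6.52 and 7.61 TPM in N mice 1 to 5 and at 42.5, 47.8, 23.2, 85.7 and 30.8 in E mice 1 to 5. The Y mice had 23.2, 26.2 and 41.4 TPM, and the EY mice ranged from 85.9 to 249 with a median of 172. All E, Y and EY mice were above all N mice, and all EY mice were above all E and Y mice, while Y and E mice overlapped. Icam1 had the largest log2 fold change of the 10 genes in EY epithelia, 3.90 (SE 0.36, adjusted p = 1.88e-07), and it was the only DEG of the 10 in E epithelia (1.94, SE 0.38, adjusted p = 0.00601). In Y epithelia the value was 1.44 (SE 0.44, adjusted p = 0.0324).

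The call of Icam1 in E epithelia depended on single mice. Its adjusted p was 0.0182 without N mouse 3, 0.0220 without N mouse 4, 0.0215 without N mouse 5, 0.0118 without E mouse 1, 0.0194 without E mouse 2 and 0.0175 without E mouse 4. With only N mice 1 to 3 the log2 fold change was 1.54 (adjusted p = 0.0884). N mice 4 and 5, at 6.52 and 7.61 TPM, were the lowest of the N group.

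Birc3 encodes cIAP2, a ubiquitin ligase that acts on the TNF receptor complex and protects cells from death. It ranged from 5.37 to 11.3 TPM in EY, 3.5 to 9.13 in Y, 2.81 to 3.86 in E and 3.27 to 4.84 in N mice. Y mouse 1 was within the range of the N mice, while the other Y mice were above it. Birc3 was a DEG in EY epithelia (log2 fold change 1.17, SE 0.23, adjusted p = 0.000557), with 0.80 after scaling (adjusted p = 0.0150). In Y epithelia the value was 0.82 (SE 0.28, adjusted p = 0.0557), and without Y mouse 1 it was 1.27 (adjusted p = 0.00247), which passed both thresholds. In E epithelia it was -0.11 (SE 0.24).

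**Figure D2:**
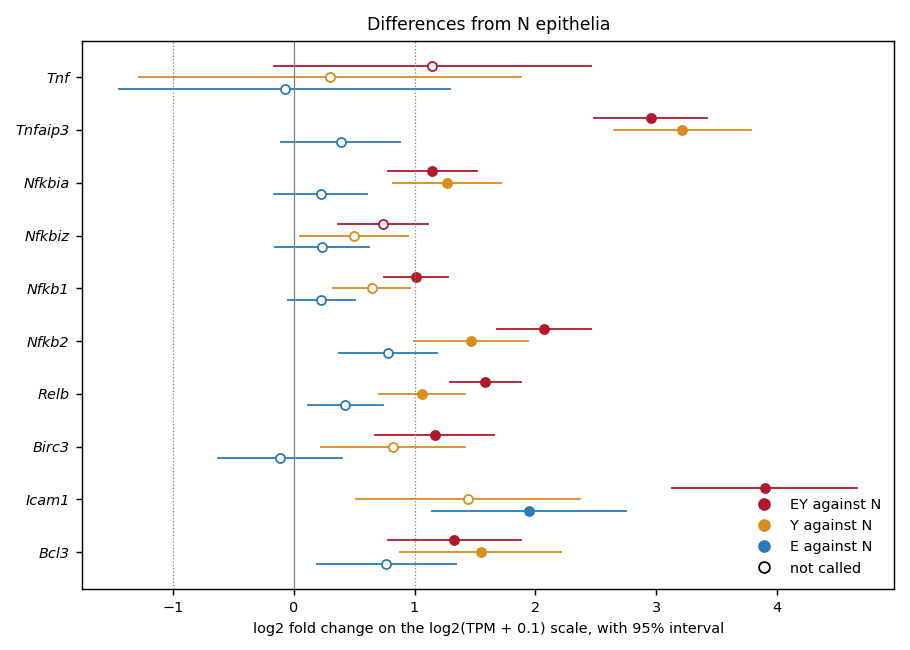
Log2 fold changes of the 10 genes in EY, Y and E epithelia against N, with 95% intervals, where filled points are DEGs, open points are not, and dotted lines mark the limit on the fold change. EY epithelia have 8 filled points, Y epithelia 5 and E epithelia 1, that of Icam1 at 1.94.

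The comparisons of EY with E and with Y ask what each effector added to the other. Against E, 5 of the 10 genes were DEGs and all were higher in EY epithelia, where 7.82% of all genes were called higher. Of all genes called, 61.1% were higher, and 38.9% after scaling. The 5 DEGs were Tnfaip3 (log2 fold change 2.57, adjusted p = 1.83e-07), Icam1 (1.95, adjusted p = 0.000395), Nfkb2 (1.30, adjusted p = 2.98e-05), Birc3 (1.28, adjusted p = 0.000321) and Relb (1.16, adjusted p = 5.74e-06). Relb was under the limit after scaling, at 0.91. Nfkbia, at 0.92 (adjusted p = 0.000457), passed the limit without E mouse 5 (1.03) or EY mouse 3 (1.04).

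Against Y, only Icam1 was a DEG (1.07% of all genes called higher, which is 53.5% of those called, and 30.3% after scaling), with a log2 fold change of 2.46 (SE 0.43, adjusted p = 0.00193). It was not called without Y mouse 1 (2.29, adjusted p = 0.0179) or Y mouse 2 (2.38, adjusted p = 0.0128), which leaves the Y group with 2 mice. Relb, Nfkb2 and Nfkb1 were at 0.52, 0.61 and 0.36, and each EY mouse was above each Y mouse in these 3 genes and in Icam1, which held for 11.1% of all genes. The adjusted p of Relb, Nfkb2 and Nfkb1 were 0.0566, 0.0925 and 0.135. After scaling these genes were at 0.35, 0.43 and 0.19 (limma adjusted p = 0.208, 0.152 and 0.374). The overlap of mice was read before scaling only. Tnfaip3 (-0.26), Nfkbia (-0.12) and Bcl3 (-0.22) had lower means in EY than in Y epithelia, with 95% intervals from -0.81 to 0.29, from -0.55 to 0.31 and from -0.86 to 0.42.

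The interaction EY - E - Y + N asks whether both effectors together differ from the sum of the single ones. Of the 10 genes 0 were called by limma, and 0 by limma voom, while 0.176% of all genes were called in either direction. At an unadjusted p below 0.05 there was 1 gene of the 10, Bcl3, where 13.5% of all genes were, a share near that of the 10. Its log2 fold change of 1.33 in EY epithelia stood against a sum of 2.31, a difference of -0.99 (95% interval from -1.85 to -0.13, adjusted p = 0.292). Over all settings run the difference for Bcl3 was between -1.215 and -0.579. For Tnfaip3 the EY value of 2.95 stood against a sum of 3.60, a difference of -0.65 (95% interval from -1.39 to 0.09). For Icam1 it was 3.90 against 3.38, a difference of 0.51 (95% interval from -0.69 to 1.72). The intervals were widest for Tnf, from -1.13 to 2.98.

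**Figure D3:**
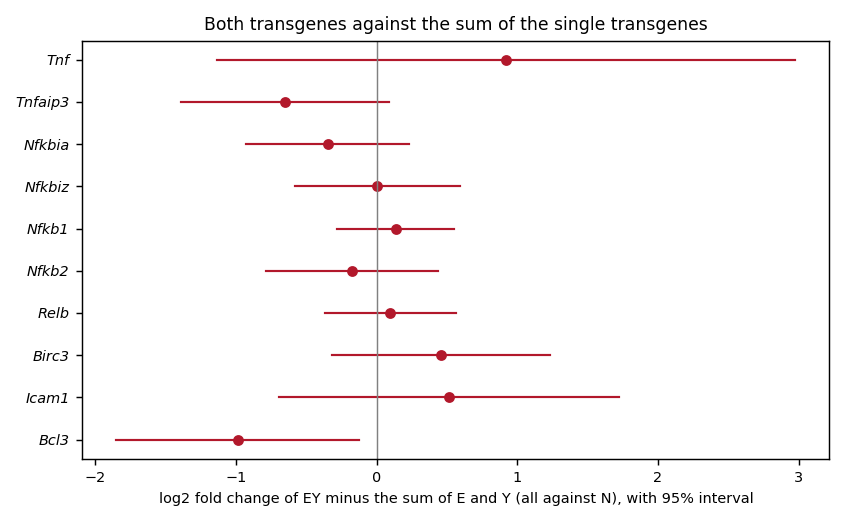
Log2 fold change of EY minus the sum of E and Y, all against N, for the 10 genes, with 95% intervals. The intervals of 9 of the 10 genes include 0.

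Among 91 further genes of the pathway, 88 were tested. In EY epithelia 24 rose and 1 fell, where 12.6% of all genes were called higher, with a median log2 fold change of 0.78, and after scaling 16 rose and 2 fell, where 6.77% of all genes were called higher, with a median of 0.42. In Y epithelia 9 rose and 0 fell, where 3.47% of all genes were called higher, with a median of 0.37. In E epithelia 0 were called by limma or by limma voom, with a median of 0.20 and 12 at an unadjusted p below 0.05, no larger a share than the 14.8% of all genes. These counts describe the lists and were not tested against other genes.

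Of 9 ligands tested, 2 rose in EY epithelia, where 12.6% of all genes were called higher. Tnfsf15, which encodes the TNF family cytokine TL1A, was at 3.72 ± 1.47 TPM (SD, n = 6) in EY against 0.0623 ± 0.0930 (n = 5) in N epithelia, with a log2 difference of 4.62 (adjusted p = 1.93e-08). Tnfsf9, the ligand of 4-1BB, had 2.37 (adjusted p = 0.000957). Of 13 receptors 4 rose, beside the same share of all genes. Tnfrsf12a, the receptor of TWEAK and an entry to the noncanonical branch, was at 332 ± 56.8 TPM in EY and 232 ± 37.7 in Y against 46.8 ± 8.35 in N epithelia. It rose by 2.83 in EY and 2.32 in Y epithelia on the log2 scale. Tnfrsf9 (2.28) and Il1r1 (2.22), the receptor of interleukin-1, were among them. The TNF receptors themselves were no DEGs, with 0.39 for Tnfrsf1a (adjusted p = 0.0244) and 0.80 for Tnfrsf1b (adjusted p = 0.341), and the value of Tnfrsf1a was 0.01 after scaling.

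Of 27 adaptors and kinases 3 rose and 1 fell in EY epithelia, a share of rises no larger than the 12.6% of all genes. After scaling 2 rose and 1 fell, where 6.77% of all genes were called higher. Card10 (1.71, adjusted p = 5.71e-06) and Bcl10 (1.42, adjusted p = 8.17e-07), a scaffold and its partner on the way to NF-kB, rose, while Card14, a scaffold of keratinocytes, fell by 1.36 (adjusted p = 0.00945). The kinases that act on IkB were no DEGs, with 0.71 for Chuk (adjusted p = 3.4e-05), 0.39 for Ikbkb (adjusted p = 0.015) and 0.15 for their scaffold Ikbkg (adjusted p = 0.337). Chuk missed only the limit on the fold change. After scaling these values were 0.34, 0.02 and -0.22. Of 5 other subunits and IkB proteins, Nfkbid rose (1.05, adjusted p = 0.00712), with 0.69 after scaling. Rela, the main activating subunit, was at 27.9 ± 4.55 TPM in EY, 29.3 ± 8.78 in Y, 25.1 ± 5.69 in E and 15.6 ± 2.61 in N epithelia. Its log2 fold change of 0.83 in EY (adjusted p = 0.000876) was under the limit, and Rel was at 0.33 (adjusted p = 0.121).

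Of 11 other brakes tested 2 rose in EY epithelia, where 12.6% of all genes were called higher. They were Irak3 (1.76, adjusted p = 4.84e-05), which blocks interleukin-1 receptor signaling, and Cyld (1.10, adjusted p = 8.56e-06), a deubiquitinase. After scaling Cyld was at 0.73 and under the limit. Of the 11 brakes 1 then rose and 1 fell, where 6.77% of all genes were called higher and 8.67% lower. Of 23 other targets tested 12 rose and 0 fell, with a median of 1.72, and 7 rose after scaling. The shares of all genes called higher were again 12.6% and 6.77%. The chemokine genes Ccl2, Cxcl1 and Ccl20, which draw monocytes, neutrophils and lymphocytes, had log2 fold changes of 5.23 (adjusted p = 4.59e-05), 5.19 (adjusted p = 3.2e-05) and 4.61 (adjusted p = 1.53e-05). In Y epithelia they were at 4.02, 4.34 and 5.64 and in E epithelia at 1.06, 0.01 and 0.98, where they were no DEGs.

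**Figure D4:**
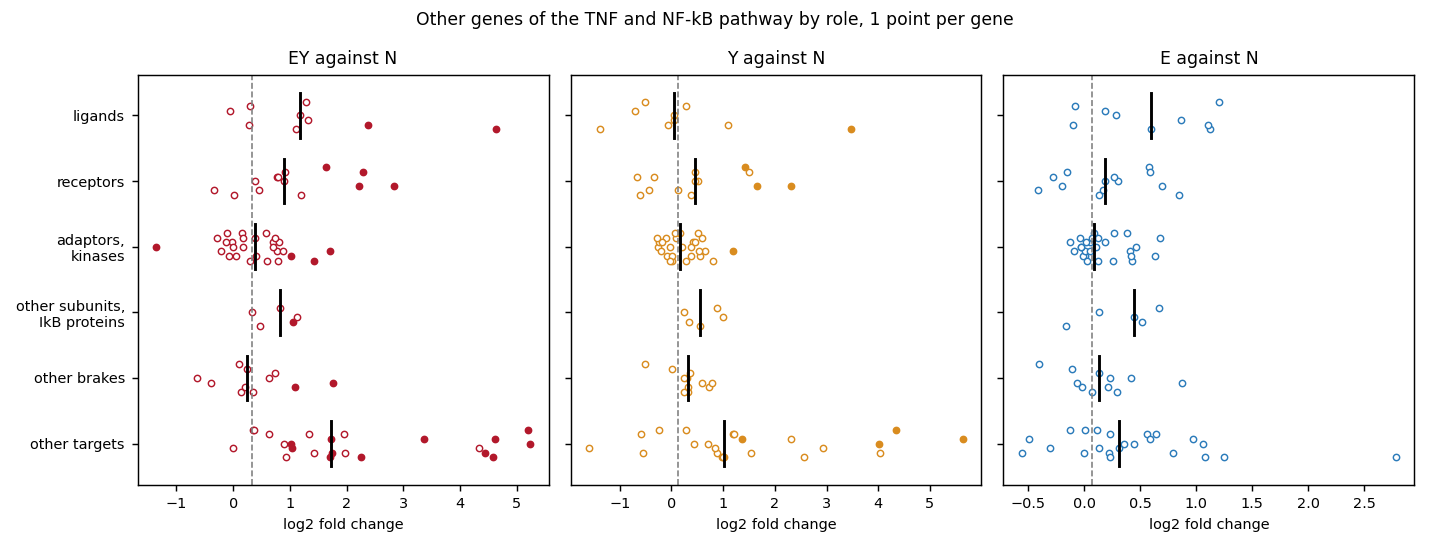
Log2 fold changes of the further pathway genes in EY, Y and E epithelia against N by role, 1 point per gene, filled where called, with black bars at the median of each role and a dashed line at the median of all genes. Targets have a median of 1.72 in EY epithelia against 0.33 for all genes.

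Markers of other cells were read beside these results, since leukocytes, endothelium and fibroblasts also use NF-kB. All markers of every list were above 0 in at least 1 mouse. The 9 neutrophil markers summed to 57.8 ± 46.2 TPM in EY, 16.9 ± 12.0 in Y, 4.17 ± 3.15 in E and 7.87 ± 6.08 in N epithelia, with 2.17 in EY mouse 6 and 131 in EY mouse 4. Their most abundant gene, Retnlg, had a mean of 39.8 TPM in EY against 0.425 in N epithelia, but was not called (limma adjusted p = 0.0143). Of the 9 markers 3 rose, where 12.6% of all genes were called higher. They were Mmp8 (3.58), Cd177 (2.09) and Ly6g, the last listed at 0 in all N, E and Y mice. EY mouse 6, with the fewest neutrophil transcripts of its group, had the lowest Icam1 and Birc3 of the group, at 85.9 and 5.37 TPM, the highest Nfkb2, at 37.4, and 32.4 TPM of Tnfaip3. EY mouse 4, with the most, had the highest Tnfaip3, Nfkbia and Birc3 of the group, at 36.8, 591 and 11.3 TPM. Its Icam1, at 209 TPM, was not the highest.

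T cell markers (7 genes) summed to 35.8 ± 10.6 TPM in EY, 16.2 ± 5.44 in Y, 14.1 ± 7.0 in E and 7.19 ± 6.49 in N epithelia. Trbc2 (3.45), the most abundant, and Cd3d (2.75) rose in EY epithelia, where 12.6% of all genes were called higher. The other 5 were not called, at 1.18 to 1.84. The 6 pan-leukocyte markers, with Coro1a as the most abundant, summed to 32.7 ± 3.45 TPM in EY, 17.5 ± 2.41 in Y, 25.8 ± 9.91 in E and 21.8 ± 12.9 in N epithelia. The 10 macrophage and monocyte markers, led by Lyz2, summed to 295 ± 313, 296 ± 207, 79.3 ± 18.1 and 284 ± 74.8 TPM in N, E, Y and EY in turn. N mouse 1 was the highest N mouse in both lists, at 43.9 TPM against 9.85 to 19.8 and at 841 TPM against 104 to 278. The median log2 fold change in EY epithelia was 0.83 for the pan-leukocyte genes (0.49 after scaling) and 1.42 for the macrophage and monocyte genes (1.09 after scaling), of which Lyz2 was at -0.28. In both of these lists 0 genes were called in EY epithelia by limma or limma voom, with 2 and 4 at an unadjusted p below 0.05, where 48.6% of all genes were.

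Dendritic and Langerhans cell markers (6 genes, led by Cd74) summed to 119 ± 58.9 TPM in EY, 75.6 ± 18.2 in Y, 107 ± 37.5 in E and 99.1 ± 66.7 in N epithelia. Cd207 fell by 1.86 in EY epithelia, while the other 5 were not called, at -0.04 to 0.62, and the list had a median of 0.30 (-0.06 after scaling). Endothelial markers (6 genes, led by Tie1) summed to 0.880 ± 0.541, 1.03 ± 0.492, 0.660 ± 0.334 and 2.37 ± 1.73 TPM in N, E, Y and EY in turn, and Tie1 rose in EY (1.72) but was not called after scaling (1.42). The other 4 endothelial genes tested were not called, at -0.32 to 0.86. Fibroblast markers (6 genes) summed to 144 ± 101, 80.6 ± 19.4, 34.1 ± 10.1 and 86.8 ± 52.6 TPM in that order. Dcn, the most abundant, fell by 2.36 in EY epithelia, while the other 5 were not called, at 0.32 to 1.08, and the list had a median of 0.39 (0.02 after scaling). Skeletal muscle markers (6 genes, led by Acta1) summed to 75.6 ± 86.1, 45.6 ± 45.1, 51.6 ± 68.9 and 303 ± 442 TPM in that order, with 1194 in EY mouse 3. The part of these cells in the levels of the 10 genes was not tested.

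Immediate-early genes, which respond within minutes to stress and to tissue handling, were read as well, since the epithelium was incubated warm with enzymes. Their 12 genes summed to 2516 ± 520 TPM in EY, 3666 ± 728 in Y, 4946 ± 1452 in E and 4770 ± 1208 in N epithelia. In EY epithelia 4 fell and 0 rose, where 5.71% of all genes were called lower, among them Fosb by 2.20, Nr4a1 by 2.19 and Fos, the most abundant, by 1.87 (adjusted p = 0.000542). The other 8 were not called, at -1.13 to 0.18, and after scaling 6 of the 12 fell, where 8.67% of all genes did. The part of these genes in the levels of the 10 genes was not tested.

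**Figure D5:**
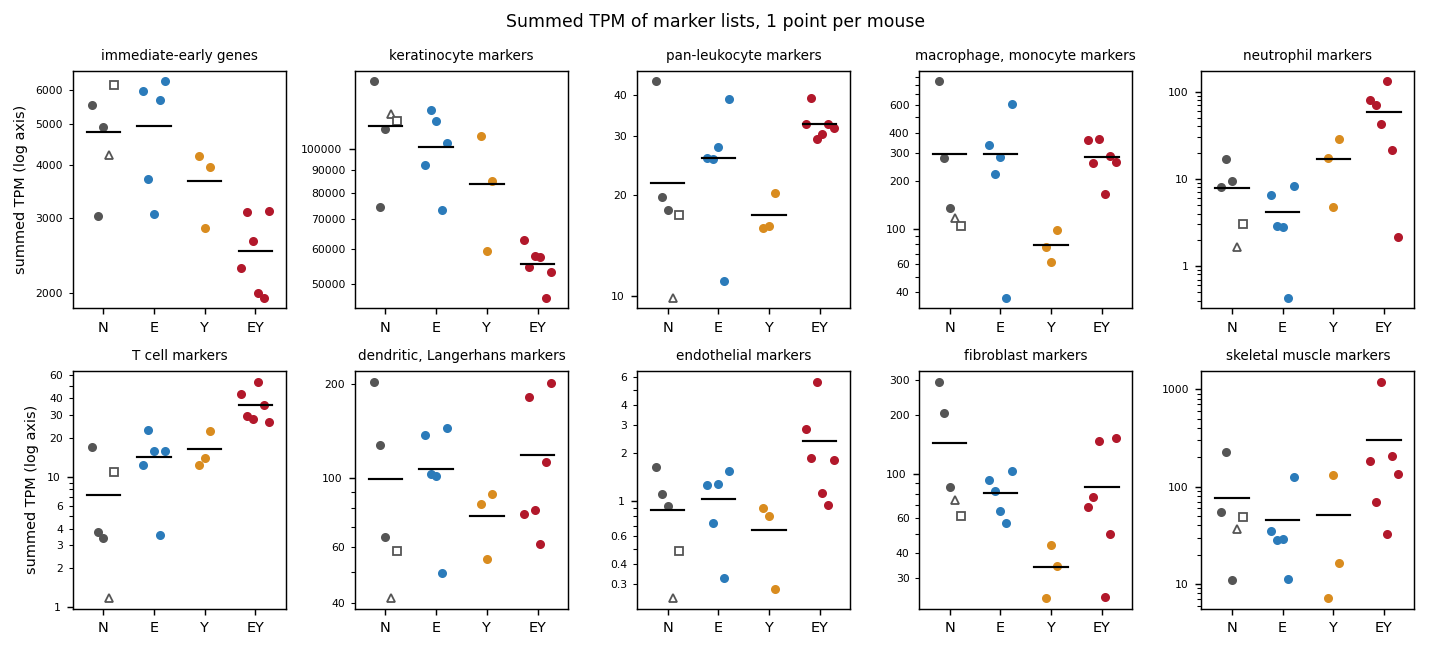
Summed TPM (log axis) of the marker lists and the immediate-early genes in each mouse, with bars at the group means and open symbols for N mouse 4 (triangle) and N mouse 5 (square). Neutrophil markers range from 2.17 to 131 TPM among EY mice, and immediate-early genes from 1949 to 3112.

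Mice of a group also varied together in some genes. After subtraction of the group means, the genes most like Nfkbia over the 19 mice, among 15604 genes with a mean of at least 1 TPM, were Trub2 (r = 0.90), Csrp1 (r = 0.85) and Ints14 (r = 0.84). Those most like Tnf were Trim12c (r = 0.81), H2-M2 (r = 0.76) and 1700042G15Rik (r = 0.75), the last listed at 0 in all EY mice. They are the highest of many values, describe these mice only, and compare genes measured in the same libraries.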

How the data were processed

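Tongue epithelia of 19 mice were grouped as N, E, Y and EY by the genotypes in the labels. The authors aligned reads to GRCm39 with STAR 2.7.9, sorted them with SAMtools 1.7, counted them per gene with HTSeq 0.13.5 and tested counts with DESeq2 1.34.0. The deposited values are TPM, and how they were made from counts is not given in the sources used here. Whole reads, within 0.01, were recovered from the steps of the TPM for 24680 of 24680 genes above 0, and served for depth and for limma voom.

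Since a count test was not suited to TPM, log2(TPM + 0.1) went into 1 linear model of 4 group means (R 4.3.3, limma 3.58.1), with moderated variances that follow the mean level. Adjustment was over the 22745 genes tested in each of 6 comparisons. The steps were tested on simulated data. Figures were drawn with matplotlib 3.10.9 and tables with pandas 2.3.3 and numpy 2.4.6, under Python 3.11.15.

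Genes named are the 10 genes, the 3 largest changes among DEGs of EY against N in each further list, the TNF receptors, Rela, Rel and the IkB kinases, and the most abundant gene of each marker list. For likeness, the 3 genes with the highest Pearson r to Tnf and to Nfkbia were named. The 10 genes and the lists were chosen with earlier results of these data known. Alternatives were quantile normalization, median-of-ratios scaling, a filter at 1 TPM or at any value above 0, a pseudocount of 0.01 or 1 TPM, only N mice with Krt14-CreERT and LSL-rtTA, only the groups compared, a replicate block, robust eBayes, other thresholds, limma voom and leaving out each mouse. No batch is given in the labels, and the transgenes were not analysed here.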

Additional observations from a re-analysis of the deposited data

Results flagged for a closer look

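Birc3 in N mouse 1 was at 4.84 TPM, far from the other N mice at 3.27 to 3.67, with a gap to the nearest of them of 0.744 of the whole range of the group. It was the only such value among 30 groups of mice examined over the 10 genes, and chance alone gives about 1 in 20, or 1.5 of 30. Without N mouse 1 Birc3 was still a DEG in EY epithelia.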

How the results depend on the processing

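The 8 DEGs of EY against N became 4 with median-of-ratios scaling and 5 with quantile normalization, 6 with only N mice 1 to 3, 6 by limma voom, 7 with a pseudocount of 1 TPM, 9 with no limit on the fold change, and 7 to 8 without 1 mouse. Of all genes called in EY, 68.8% were higher, against 43.9% and 46.1% with these scalings, and 75.8% in Y, against 57.2% and 62.6%. Against E it was 61.1% in EY, against 38.9% and 40.1%, and against Y 53.5%, against 30.3% and 30.1%. The 5 DEGs of Y became 3 with only N mice 1 to 3 and 2 with only the groups compared, which lost Nfkb2, Relb and Bcl3. The 1 DEG of E became 0 with only N mice 1 to 3 and with only the groups compared, and 0 to 1 without 1 mouse. Without 1 mouse the 1 DEG of EY against Y was also 0 to 1. The causes were not tested.

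With the mouse number as a replicate block the DEGs of E became 0 and Bcl3 in Y was not called (adjusted p = 0.0209). Mouse numbers did not pair the mice, since the deviations of 24 pairs with the same number had r from -0.0426 to 0.0764. EY mouse 6 has a number of its own and adds nothing to that fit.

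Of 20 calls, 10 held at every setting and 0 changed direction. Values that changed sign were not called. Tnf in E was 0.12 with only N mice 1 to 3 and -0.35 to 0.40 without 1 mouse, and in Y -0.52 to 1.38. Against Y, values in EY without 1 mouse were -0.23 to 1.67 for Tnf, -0.10 to 0.58 for Birc3 and -0.45 to 0.018 for Bcl3. The interaction of Nfkbiz was -0.059 with median-of-ratios scaling, -0.093 with only N mice 1 to 3, -0.16 with the replicate block, -0.032 with limma voom and -0.094 to 0.18 without 1 mouse. It was 0.15 for Nfkb2 with only N mice 1 to 3, -0.039 for Relb with quantile normalization and -0.034 to 0.20 without 1 mouse, and -0.16 to 1.75 for Tnf. Tnf had the fewest reads of the 10 genes, at 4 to 67 per mouse, and the part of depth in its values was not tested.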
